A study of Homo sapiens with 18 samples.

Results

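Small nucleolar RNAs (snoRNAs), small Cajal body RNAs (scaRNAs) and the SNHG and GAS5 genes that carry many of them were measured by RNA-seq in ZR751 cells with and without knockdown of MLL3. Of the 23500 rows of the FPKM table, 401 had RefSeq identifiers that map to a symbol starting with SNORD, SNORA, SCARNA or SNHG, or to GAS5. These were 369 snoRNA and scaRNA rows, 14 SNHG and GAS5 rows, and 18 rows that join a member with another gene and cannot be split. ZR751 is an estrogen receptor positive breast cancer cell line. ZR751shMLL3 cells were stably transduced with lentivirus carrying 1 short hairpin RNA against MLL3 (KMT2C), an H3K4 monomethyltransferase, and ZR751shLucif control cells with a hairpin against luciferase. Both lines were sorted for GFP, and each was harvested at steady state for 2 biological replicate libraries. With 1 hairpin and 1 transduced line on each side, the hairpin, the line and its passage cannot be told apart. FPKM, a fragment count scaled by transcript length and by the library's mapped fragments, is a level per length. Where 4 values follow a gene, they are FPKM in ZR751shLucif replicates 1 and 2 and then ZR751shMLL3 replicates 1 and 2.

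Box C/D snoRNAs (SNORD) guide 2′-O-methylation of ribosomal RNA, box H/ACA snoRNAs (SNORA) guide its pseudouridylation, and scaRNAs (SCARNA) guide the same modifications of spliceosomal RNAs in Cajal bodies. Most human snoRNAs have no promoter of their own. They are cut from the introns of host genes, which encode ribosomal proteins, translation factors and other proteins, or which, like the SNHG genes and GAS5, are kept mainly for their introns. The spliced exons of several of these noncoding hosts are short-lived.

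The sequences the results turn on are given first, read from GRCh37 (hg19) at the GENCODE positions. SNORD104, at 0 in both ZR751shMLL3 libraries and high in both controls, lies in an intron of SNHG25 at chr17:62223443-62223512 (+). SNORD35A, at chr19:49994432-49994517 (+) in RPL13A, is shown because it is among the shortest rows above 0, in 1 library. Capitals mark the C box TGATGA where it lies in the first 20 bases and the D box CTGA where it lies in the last 15.
SNORD104: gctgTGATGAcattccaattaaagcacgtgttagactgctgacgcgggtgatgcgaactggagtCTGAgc
SNORD35A: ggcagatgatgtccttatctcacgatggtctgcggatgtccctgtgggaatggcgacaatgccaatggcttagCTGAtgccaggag

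Of 186 SNORD rows with a position on hg19, 73.1% held TGATGA in that window and 94.1% held CTGA in theirs. Both shares were close in the 19 rows above 0 in any library, at 73.7% and 94.7%, and in the 167 rows at 0 in all of them, at 73.1% and 94.0%. Box H/ACA snoRNAs with high levels are SNORA10 in RPS2, at chr16:2012335-2012467 (-), SNORA48 in EIF4A1, at chr17:7478031-7478165 (+), and SNORA70 in RPL10, at chrX:153628622-153628756 (+). Capitals mark the ACA box in the last 6 bases, which 88.0% of 75 positioned SNORA rows held.
SNORA10: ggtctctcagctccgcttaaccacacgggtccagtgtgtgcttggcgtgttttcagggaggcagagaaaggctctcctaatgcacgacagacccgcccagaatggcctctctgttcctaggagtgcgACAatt
SNORA48: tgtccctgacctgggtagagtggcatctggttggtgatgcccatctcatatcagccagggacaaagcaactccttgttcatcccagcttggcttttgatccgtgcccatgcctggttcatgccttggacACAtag
SNORA70: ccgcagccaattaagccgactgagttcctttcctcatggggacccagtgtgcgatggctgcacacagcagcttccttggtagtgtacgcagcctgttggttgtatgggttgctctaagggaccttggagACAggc

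Most snoRNAs were listed at 0. Of the 369 snoRNA and scaRNA rows, 263 were at 0 in all 4 libraries, 35 were above 0 in 1 library, 19 in 2, 32 in 3 and 20 in all 4. By class, 24 of 249 box C/D rows, 62 of 97 box H/ACA rows and 20 of 23 scaRNA rows were above 0 in any library. A row is therefore described only as listed at 0, and not as lacking the RNA. Across the whole table, 28.8% to 29.6% of rows were at 0 in a library, against 75.6% to 93.2% of the snoRNA and scaRNA rows.

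Detection differed with annotated length, as the plot of detected rows by length shows. None of the 121 rows under 80 bases was above 0 in any library. From 80 to under 90 bases 4 of 62 were, SNORD104, SNORD76 and SNORD35A among them, and from 90 to under 100 bases 8 of 44. The count was 5 of 14 from 100 to under 120 bases, 11 of 23 from there to under 130, 61 of 84 from there to under 150 and 17 of 20 at 150 or more. Class and length go together here, since all 97 box H/ACA rows and all 23 scaRNA rows had 120 bases or more. All 7 box C/D rows that long were above 0, against 63.9% of the box H/ACA rows. The imprinted SNORD clusters also go with length. Median lengths were 82 bases for 43 SNORD115 rows, 94 for 29 SNORD116, 71 for 31 SNORD114 and 74 for 7 SNORD113. The 6 SNORD116 rows above 0 had 94 or 97 bases. The part of these clusters in the difference by length was not tested. One SNORD115 row that stands for several copies has no length and was at 0.

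**Figure D1:**
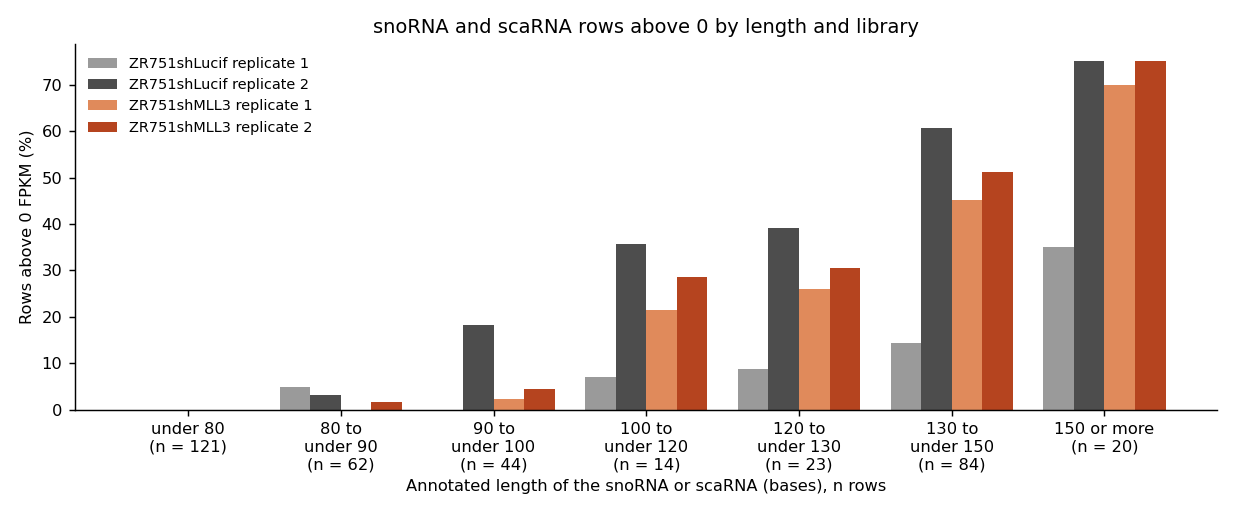
Share of snoRNA and scaRNA rows above 0 FPKM (percent, y axis) by annotated RefSeq length in bases (x axis, with the number of rows), 1 bar per library. No row under 80 bases was above 0, and ZR751shLucif replicate 1 had the lowest share in every class of 90 bases or more.

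The smallest value above 0 also differed with length. It was 100.3 FPKM among rows of 80 to under 90 bases, 21.9 among rows of 90 to under 100, 1.37 among rows of 130 to under 150 and 0.201 among rows of 150 or more. In the shortest of these classes no value lay between 0 and 100.3 FPKM, and 6 values were above 0. Among them are 536 and 515 for SNORD76, 236 and 358 for SNORD104 and 100.3 for SNORD35A. The fragments behind each value are not given, so no counting interval can be set.

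The imprinted SNORD clusters were nearly all at 0. All 7 SNORD113, 31 SNORD114 and 43 SNORD115 rows were at 0 in every library. Of 29 SNORD116 rows, brain-expressed box C/D RNAs from the SNHG14 transcript, 6 were above 0. Each of the 6 was above 0 in ZR751shLucif replicate 2, at 21.9 to 47.0 FPKM, and 1, SNORD116-23, also in ZR751shMLL3 replicate 2, at 50.5. SNORD116 copies are much alike, so reads may be split between them and each value is uncertain.

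ZR751shLucif replicate 1 stood apart from the other 3 libraries, whose library numbers in the labels are consecutive while its own is not. It had 25 snoRNA and scaRNA rows above 0, against 90 in ZR751shLucif replicate 2 and 62 and 72 in the ZR751shMLL3 libraries. The mean number of rows at 0 was 311.5 ± 46.0 (SD, n = 2) in ZR751shLucif and 302 ± 7.07 (SD, n = 2) in ZR751shMLL3. The difference was -9.5 rows (exact permutation test, two-sided, p = 1), and 2 libraries against 2 can give no p below 0.333 in that test. Without ZR751shLucif replicate 1 the difference was 23 rows, with more rows at 0 in ZR751shMLL3.

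The levels showed the same library. Among the 52 rows above 0 in 3 or 4 libraries, ZR751shLucif replicate 1 was lowest in 49, and the medians were 0, 34.6, 18.4 and 33.4 FPKM. Core histone messages, which lack a poly(A) tail, and other noncoding RNAs were low in it too. Of 49 core histone rows above 0 somewhere, it was lowest in 47, with medians of 0.331, 46.1, 16.1 and 29.98 FPKM. RMRP, the RNA of RNase MRP, was at 3.56, 1023, 543 and 1410, and RPPH1, the RNA of RNase P, at 2.15, 359, 255 and 343. TERC, the telomerase RNA, was at 0, 5.36, 2.13 and 4.08, and MALAT1, a nuclear noncoding RNA, at 34.4, 168, 80.5 and 119.1. These 4 noncoding RNAs were chosen after seeing values, and their part in the snoRNA result was not tested.

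Ribosomal protein and host gene messages went the other way in that library. The median of 75 ribosomal protein rows was 1798 FPKM there, against 1104, 926 and 1041 in the others, and it was highest there in 64 of the 75. The 138 host gene rows above 0 had medians of 51.6, 40.1, 34.05 and 36.8, and 88 were highest there. Over all 11134 rows tested the medians were 14.2, 12.3, 12.1 and 12.8, and 5330 rows were highest in that library, whose sum of FPKM was also the largest at 701359 against 487395 to 524210. The snoRNAs and the genes that carry them thus deviated in opposite directions in 1 control library, as the plot of levels by library shows. The methods name the same stranded total RNA kit for all libraries. Fewer cells with a given RNA and less of it per cell cannot be told apart in these bulk samples.

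**Figure D2:**
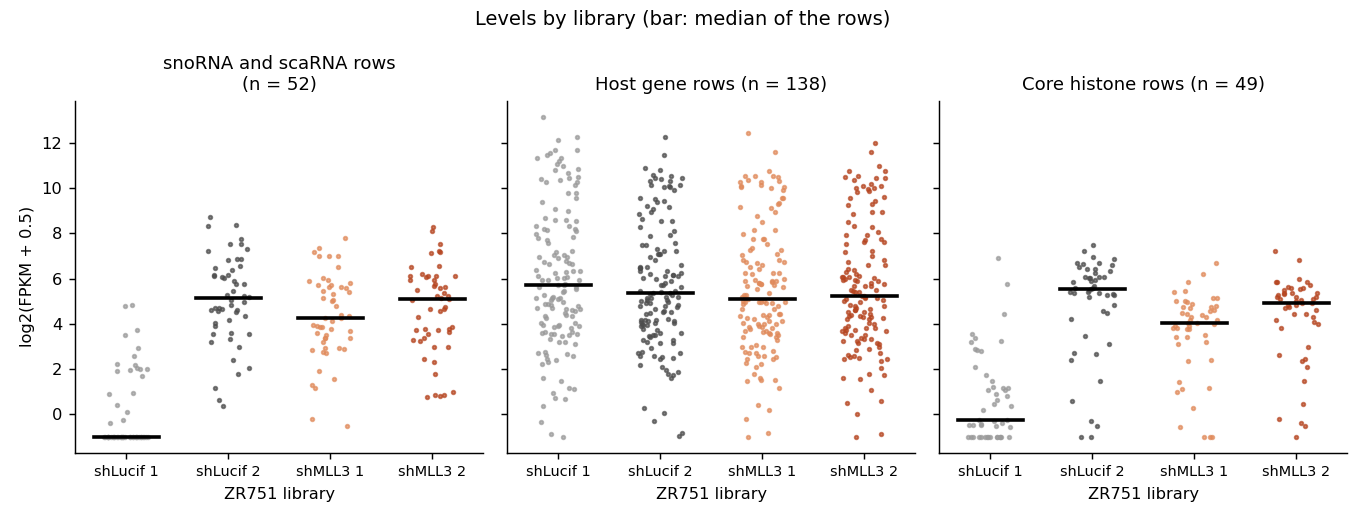
Levels as log2(FPKM + 0.5) (y axis) in each ZR751 library (x axis) for 52 snoRNA and scaRNA rows above 0 in 3 or 4 libraries, 138 host gene rows and 49 core histone rows; each point is a row and each bar the median. In ZR751shLucif replicate 1 the snoRNA and histone medians are the lowest of the 4 and the host median the highest.

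The labels were checked on the targeted gene and on markers. The paper reports the knockdown of MLL3 by qPCR, which is separate from these libraries. KMT2C was at 2.34, 6.77, 1.07 and 2.69 FPKM, so 1 ZR751shMLL3 library lay above 1 ZR751shLucif library. Its log2 fold change was -1.02 (SE 0.544), with an adjusted p by limma of 0.629, and ran from -1.70 without ZR751shLucif replicate 1 to -0.35 without ZR751shLucif replicate 2. The luminal genes ESR1, GATA3, FOXA1, KRT8, KRT18, EPCAM and CDH1 were all above 10 FPKM in every library. KRT5, KRT14, COL1A2, LUM, PTPRC and PECAM1, of other cell types, were at 0.209 or less, while COL1A1 was at 13.1 to 17.8.

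ZR751shMLL3 was compared with ZR751shLucif by limma on log2(FPKM + 0.5) over the 11134 rows with a mean above 1 on that scale, with Benjamini-Hochberg adjustment. Fold changes on this scale understate the change of low rows. At an adjusted p of 0.05, 1 row was called, or 0.00898% of those tested, and it was a member, SNORD104. At an unadjusted p of 0.05, 889 rows passed, or 7.98%. The members tested were 64 snoRNA and scaRNA rows, 12 SNHG and GAS5 rows and 15 joined rows. Of the 64, 45 were at 0 in at least 1 library, 43 of them in ZR751shLucif replicate 1, whereas 67 of all rows tested were at 0 in any library.

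SNORD104 was at 236 and 358 FPKM in the ZR751shLucif libraries, and 0 was listed for each ZR751shMLL3 library. Both controls were above both knockdown libraries, and no fold is given against a group at 0. Its adjusted p by limma was 0.000587, but the row passed the filter only through the control libraries and the equal zeros add no spread, so that p is not taken as support for a difference. With no filter on low rows the adjusted p was 0.190, and the row was not called. SNHG25, the host, has no row, so the snoRNA could not be set beside it. The annotation of SNORD104 has 80 bases in RefSeq and 70 in GENCODE.

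Only 1 other snoRNA was above 0 in both libraries of one cell line and at 0 in both of the other. SNORA53, in the SLC25A3 gene for the mitochondrial phosphate carrier, was at 0, 0, 1.97 and 0.539. It was too low to pass the filter and was not tested. SLC25A3 itself was at 279, 242, 255 and 267, with overlapping groups. Of the joined rows, MIR1248/SNORA81 was at 1.10, 4.83, 0 and 0, and was not tested either.

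Of the 20 snoRNA and scaRNA rows above 0 in all libraries, 17 were lowest in ZR751shLucif replicate 1, and none was called. SNORA10, in the ribosomal protein gene RPS2, was at 3.21, 319, 128 and 274. SNORA63, in the translation initiation factor gene EIF4A2, was at 5.37, 334, 144 and 146, and has many copies in the genome, so its value is uncertain. SNORA70, in the ribosomal protein gene RPL10, was at 10.9, 213, 127 and 148. For each of these, 1 control library lay below and 1 above both knockdown libraries. The log2 fold changes were 2.45 (SE 1.86) for SNORA10, 1.71 (SE 1.66) for SNORA63 and 1.48 (SE 1.22) for SNORA70, with adjusted p-values by limma of 0.689, 0.745 and 0.702.

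SNORA48, in the EIF4A1 gene for a translation initiation factor, was at 0, 419, 165 and 308. It shows the same order, with 1 control library below and 1 above both knockdown libraries. Among the scaRNAs, SCARNA22, in the histone methyltransferase gene NSD2, was at 7.18, 88.8, 51.9 and 142. SCARNA12, in the prohibitin gene PHB2, was at 3.96, 42.9, 20.7 and 35.1. SCARNA7, in the importin gene KPNA4, was at 0.345, 33.0, 8.58 and 26.4, and SCARNA10, in the condensin gene NCAPD2, at 0.821, 11.3, 12.3 and 11.3. In each of these 4, ZR751shLucif replicate 1 was the lowest library.

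Among box C/D snoRNAs of more than 120 bases, SNORD17, SNORD15A and SNORD22 were above 0 throughout. SNORD17, in SNX5, was at 4.20, 24.3, 10.9 and 33.7, and SNORD15A, in RPS3, at 1.37, 7.32, 6.33 and 4.53. SNORD22, an RNA needed to process 18S ribosomal RNA, lies in SNHG1 and was at 3.32, 14.4, 41.4 and 7.30. SNORD89, a shorter box C/D RNA in RNF149, was at 27.8, 185, 51.7 and 93.5. The groups of each overlapped.

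Among those 20 rows, SNORA18 was higher in ZR751shMLL3 without overlap. It was at 3.47, 11.3, 48.5 and 23.0 FPKM, and both knockdown libraries were above both controls. Its log2 fold change was 2.31 (SE 0.593), with an adjusted p by limma of 0.476. Its host TAF1D, a subunit of the RNA polymerase I selectivity factor, was at 42.7, 14.9, 16.8 and 17.9. Of 8 rows in TAF1D, 4 were above 0, and their sums were 16.2, 48.0, 162 and 31.9, so the highest library was ZR751shMLL3 replicate 1. There SNORA40 was at 61.4, SNORA8 at 32.9 and SNORA25 at 18.9.

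SNORA50C, for which the mapping used here gave no position on hg19 and no host, was the one of the 20 lower in ZR751shMLL3 without overlap. It was at 27.3, 25.3, 13.9 and 24.9, so that 1 knockdown library lay just below the controls. Its log2 fold change was -0.49 (SE 0.348), with an adjusted p by limma of 0.679, and was -0.07 without ZR751shMLL3 replicate 1 and -0.90 without replicate 2. SNORA62, in RPSA, was at 1.43, 22.7, 3.26 and 9.75, and SNORA8, in TAF1D, at 12.8, 30.9, 32.9 and 8.88. SNORA57, in CSKMT, was at 3.65, 70.3, 34.8 and 14.2, SNORA22, in CCT6P1, at 2.70, 38.5, 15.1 and 37.1, and SNORA61, in SNHG12, at 3.44, 19.8, 11.4 and 7.27. These 5 had overlapping groups, with log2 fold changes of -0.11, -0.20, 0.41, 1.11 and 0.11 in that order.

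The direction over the list changed with 1 library. The median log2 fold change of the 64 snoRNA and scaRNA rows tested was 1.63, with 51 higher and 13 lower in ZR751shMLL3, against a median of -0.10 over all rows tested. The median was 2.78 with a pseudocount of 0.1, 1.02 with 1 and 0.886 with no filter. Without ZR751shLucif replicate 1 the median was -0.86 over 70 rows, with 11 higher and 59 lower, against 0.02 over all rows of that fit. Without ZR751shLucif replicate 2 it was 4.43 over 54 rows, and 42 snoRNA and scaRNA rows were called, 40 of them higher, where 3.26% of all rows were called higher. A row passed the filter mostly through the 3 libraries in which it was above 0, so these counts describe the rows that passed and support no direction.

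Groups that did not overlap were few. Both ZR751shMLL3 libraries were above both ZR751shLucif libraries in 4 of the 64, namely SNORA18, SNORA2A, SNORA3A and SNORA71C, or 6.25%, against 17.6% of all rows tested. They were below both in SNORD104 and SNORA50C, 2 of the 64 or 3.12%, against 25.3%. Against ZR751shLucif replicate 2 alone, both ZR751shMLL3 libraries were lower in 32 of the 52 rows above 0 in those 3 libraries (61.5%) and higher in 5 (9.62%), where 37.2% and 41.3% of all rows tested were. The core histone rows had the same order of medians in those 3 libraries, highest in ZR751shLucif replicate 2 and lowest in ZR751shMLL3 replicate 1, and their part in this was not tested.

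SNORA71, a family of 4 box H/ACA rows in SNHG17, differed from its host in library order. The copies are printed for comparison, from chr20:37055952-37056085, chr20:37058313-37058446 and chr20:37062508-37062641 (-), with the ACA box in capitals.
SNORA71A: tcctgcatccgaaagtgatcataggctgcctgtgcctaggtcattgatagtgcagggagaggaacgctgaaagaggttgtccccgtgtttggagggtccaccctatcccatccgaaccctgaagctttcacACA
SNORA71C: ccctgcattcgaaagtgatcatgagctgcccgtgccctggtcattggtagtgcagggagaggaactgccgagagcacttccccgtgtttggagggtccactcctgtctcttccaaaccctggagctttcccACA
SNORA71D: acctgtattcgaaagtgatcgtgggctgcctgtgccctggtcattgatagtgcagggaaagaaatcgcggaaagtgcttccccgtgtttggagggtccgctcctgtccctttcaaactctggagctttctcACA

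Set side by side without gaps, SNORA71C and SNORA71D had the same base at 85.8% of 134 positions, and SNORA71A shared 70.9% with each. SNORA71A was at 0, 148, 91.4 and 183, SNORA71C at 0, 54.2, 65.3 and 60.3, and SNORA71D at 0, 24.96, 14.2 and 54.5. These were listed at 0 in ZR751shLucif replicate 1 alone, while SNORA71B, at 0, 3.83, 30.4 and 0, was at 0 in ZR751shMLL3 replicate 2 too. SNHG17 was at 51.6, 21.99, 24.7 and 20.6, with its highest value in that same library. Reads may be split among the copies, so the sum over the 4 rows, at 0, 231, 201 and 298, is the safer value.

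Of the 14 SNHG and GAS5 rows, 12 passed the filter on low rows. SNHG1, which hosts SNORD22 and 7 other box C/D rows, was at 34.3, 30.03, 12.96 and 10.7 FPKM. Both knockdown libraries were below both controls, and the log2 fold change was -1.41 (SE 0.274). Its unadjusted p by limma was 0.00186 and its adjusted p 0.363, so it did not pass. GAS5, a noncoding RNA that accumulates in growth-arrested cells and hosts 9 box C/D rows, was at 188, 158, 58.3 and 96.1. It too was lower in both knockdown libraries, by -1.20 (SE 0.335) on the log2 scale, with an adjusted p of 0.507.

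SNHG5, host of SNORD50A and SNORD50B, was at 24.8, 21.0, 14.2 and 13.4, with a log2 fold change of -0.71 (SE 0.268) and an adjusted p by limma of 0.605. SNHG6 was at 81.0, 89.2, 58.3 and 63.6, with a log2 fold change of -0.48 (SE 0.264) and an adjusted p of 0.631. In SNHG1, GAS5, SNHG5 and SNHG6 the groups did not overlap, and their log2 fold changes stayed between -1.56 and -0.41 whichever library was omitted. SNHG10, SNHG15 and SNHG16 were also lower in both knockdown libraries, at 3.10, 4.68, 2.76 and 2.98 for SNHG10, at 14.0, 11.7, 11.5 and 9.52 for SNHG15 and at 232, 190.2, 153 and 185 for SNHG16. Their log2 fold changes were -0.36 (SE 0.299), -0.28 (SE 0.277) and -0.32 (SE 0.282). Leaving out 1 library moved them to between -0.62 and -0.09 for SNHG10, -0.41 and -0.15 for SNHG15 and -0.46 and -0.17 for SNHG16.

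SNHG8, SNHG9, SNHG11, SNHG12 and SNHG17 overlapped between the lines. SNHG8 was at 131, 87.2, 91.8 and 86.1, SNHG9 at 76.8, 52.2, 73.3 and 65.9, SNHG11 at 6.28, 4.03, 5.21 and 6.94, and SNHG12 at 11.7, 6.15, 5.93 and 8.36. Their log2 fold changes were -0.27, 0.13, 0.23 and -0.25, each smaller than its SE. That of SNHG17 was larger, at -0.57 (SE 0.435). SNHG33, at 2.04, 1.22, 0.913 and 0.669, did not pass the filter, and SNHG18 was at 0 in all 4. None of the 12 tested was called. Both knockdown libraries were below both controls in 7 of the 12, or 58.3%, and above in 0, where 25.3% and 17.6% of all rows were.

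**Figure D3:**
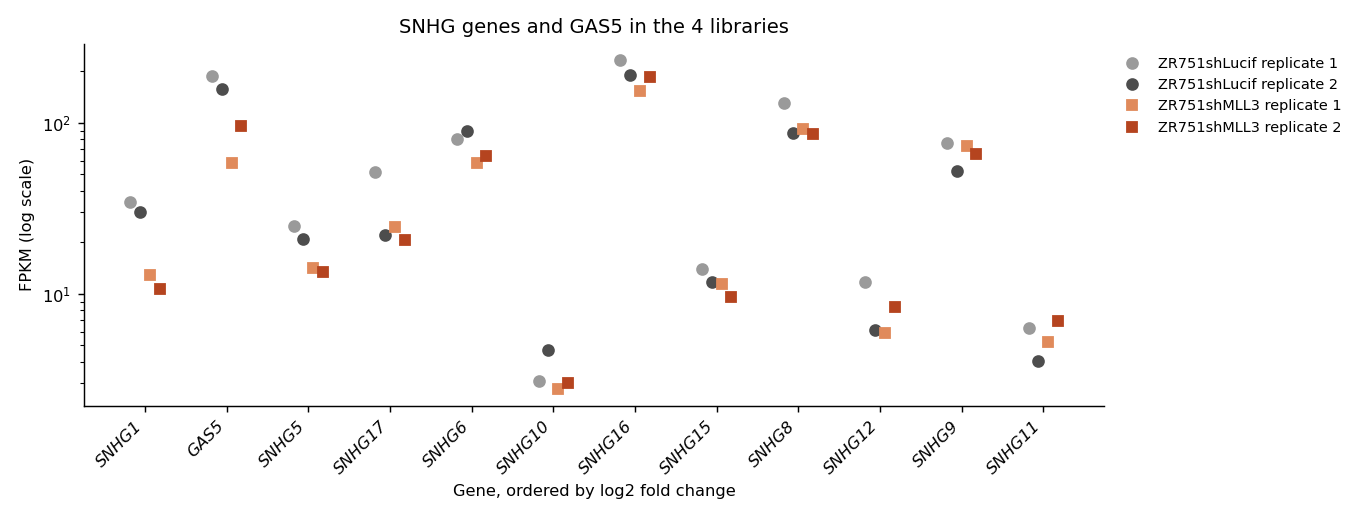
FPKM (log scale, y axis) of the 12 SNHG and GAS5 rows tested, ordered by log2 fold change (x axis), with 1 point per library. The 2 ZR751shMLL3 points lie below the 2 ZR751shLucif points for SNHG1, GAS5, SNHG5 and SNHG6, and overlap them for SNHG8, SNHG9, SNHG11 and SNHG12.

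The median log2 fold change of the 12 was -0.34, and that of the 131 host genes of all kinds that were tested was -0.33, against -0.10 over all rows. Of the 131, 103 were lower and 28 higher, and none was called. An unadjusted p of 0.05 by limma was passed by 14 of the 131 and by 7.98% of all rows tested. Both knockdown libraries were below both controls in 41.2% of them and above in 8.40%, where 25.3% and 17.6% of all rows were. Without ZR751shLucif replicate 1 the median of the host genes was -0.14. The 34 ribosomal protein and translation factor hosts had a median of -0.47, which was -0.07 without ZR751shLucif replicate 1. For the SNHG and GAS5 rows it was then -0.16. EIF4A2, at 250, 149, 108 and 107, and KPNA4, at 23.1, 23.4, 13.6 and 15.5, were lower in both knockdown libraries with unadjusted p-values by limma of 0.0429 and 0.0434 and an adjusted p of 0.610 each.

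Joined rows that hold an SNHG gene followed the same order in part. RCC1/SNHG3 was at 45.3, 32.6, 28.1 and 25.02, SNHG29/SNORD49B at 410.1, 235, 132 and 208, MATR3/SNHG4 at 64.9, 43.5, 37.9 and 42.4, and SEC14L1/SNHG20 at 19.9, 17.7, 21.2 and 22.7. All but SEC14L1/SNHG20 were lower in both knockdown libraries, and that row was higher in both. SNHG7/SNORA17A/SNORA17B was at 83.2, 415, 132 and 303, with the library order of the snoRNAs rather than that of the hosts. None of the 15 joined rows tested was called.

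Each snoRNA was set beside the host gene that holds it. A host was found on the same strand of hg19 for most rows. For others it was the RefSeq gene around the snoRNA on GRCh38, where strand was not checked. Some host values were joined rows, EIF4A1/SENP3/SENP3-EIF4A1/SNORA67 for SNORA48 and SNORD10 and SEC14L1/SNHG20 for SCARNA16. In 39 of 56 pairs tested, over 47 hosts, the snoRNA was higher and its host lower in ZR751shMLL3. Both were higher in 7, both lower in 6, and the snoRNA lower with the host higher in 4. The median of snoRNA minus host log2 fold change was 1.99. Without ZR751shLucif replicate 1 it was -0.70.

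The ratio of snoRNA to host was lowest in the same control library. The median log2 ratio over the 56 pairs was -6.14, -1.01, -2.16 and -0.76, and ZR751shLucif replicate 1 was lowest in 51 of the 56. It was lowest in all 16 pairs with a ribosomal protein or translation factor host, in 11 of 12 with an SNHG or GAS5 host and in 24 of 28 with another host. Across the pairs the 2 log2 fold changes had a Pearson r of -0.09 and a Spearman rho of -0.14, and snoRNAs of 1 host share that host. Without ZR751shLucif replicate 1 they were -0.37 and -0.19 over 61 pairs. The order of the other 3 libraries did not separate the cell lines.

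**Figure D4:**
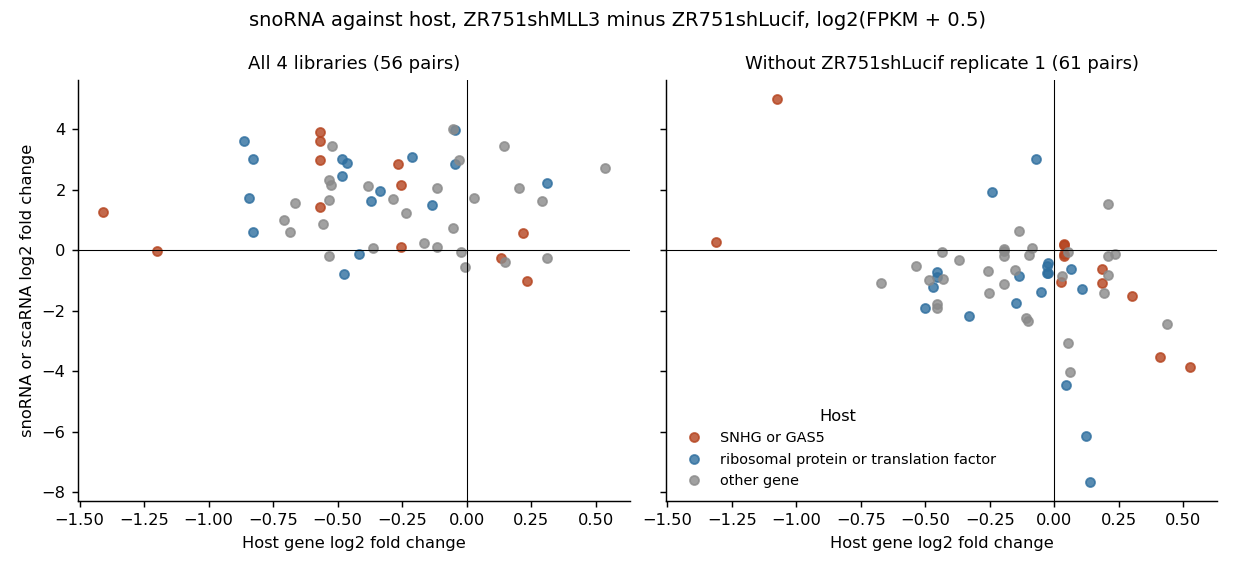
Log2 fold change of each snoRNA or scaRNA (y axis) against that of its host gene (x axis), ZR751shMLL3 minus ZR751shLucif on log2(FPKM + 0.5), with 1 point per pair coloured by kind of host. With all 4 libraries 39 of 56 pairs lie at upper left, and without ZR751shLucif replicate 1 most of the 61 pairs lie below 0 on the y axis.

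The Few of the snoRNAs in GAS5, SNHG1, SNHG5 and SNHG16 were above 0. Of the 9 rows in GAS5, SNORD76 alone was above 0, at 536, 0, 0 and 515, so 1 library of each line was high and 1 was at 0. Of the 8 rows in SNHG1, SNORD22 alone was above 0. Both rows of SNHG5 and all 3 of SNHG16 were at 0. SNHG1 was below both controls in ZR751shMLL3 replicate 1 while SNORD22 was highest there, at 319% of the host's FPKM, against 9.66%, 47.9% and 68.1% in the others.

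Rows inside an intron and rows over an exon were seen at similar shares. Of the snoRNA rows with a host on hg19, 155 lay in an intron of every host transcript and 118 overlapped an exon of at least 1. Of the former, 42 were above 0 in any library, or 27.1%, and of the latter 40, or 33.9%. Reads of a snoRNA and of a retained intron over it cannot be told apart. The rows above 0 had a higher GC content than those at 0, with medians of 48.1% and 42.1% for box C/D rows and 49.6% and 43.1% for box H/ACA rows.

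The proteins that build and trim snoRNPs were read as a further list of 41 genes. NOP56 has only a joined row, and the other 40 were tested. None passed the adjusted p, 29 were lower and 11 higher, and the median log2 fold change was -0.26, against -0.10 over all rows. The largest decreases were in ZNHIT6, a box C/D assembly factor, at 4.39, 3.31, 2.12 and 1.91 (-0.78, SE 0.280), in NPM1, nucleophosmin, at 915, 499, 375 and 427 (-0.75, SE 0.361), and in NUFIP1, an assembly factor, at 6.84, 3.63, 2.68 and 3.05 (-0.71, SE 0.352). The largest increases were in POLR1A, the largest subunit of RNA polymerase I, at 1.94, 4.61, 4.17 and 5.52 (0.59, SE 0.410), in SMG5, a nonsense-mediated decay factor, at 26.0, 34.6, 48.5 and 40.1 (0.55, SE 0.293), and in NHP2, a box H/ACA core protein, at 93.9, 136, 159 and 149 (0.44, SE 0.300).

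By group, the box C/D core had a median log2 fold change of -0.39 over 3 genes, the box H/ACA core -0.49 over 4, assembly and transport -0.35 over 15, trimming and decay -0.17 over 12, and RNA polymerase I and rRNA processing -0.07 over 6. FBL, the methyltransferase of box C/D particles, was at 165, 124, 163 and 127, and DKC1, the pseudouridine synthase of box H/ACA particles, at 67.8, 39.5, 30.8 and 35.0. For ZNHIT6, NPM1 and NUFIP1 both knockdown libraries lay below both controls, and for SMG5 and NHP2 above both. For DKC1 they also lay below, with an adjusted p by limma of 0.629. Of all rows tested, 25.3% lay below both controls and 17.6% above. The share over the list was not counted.

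The starts of the SNHG and GAS5 genes were then searched for ChIP-seq peaks. Each peak list was made by the authors in 1 library, and the 20000 peaks of highest signal in each were used, so that lists of unlike length could be compared. Of 18 starts, those with a H3K4me1 peak within 1000 bp numbered 1 in each of the 4 lists, and it was GAS5 each time. Over all 22105 gene starts the share was 2.19% to 3.38%. No start had an ERα peak in any of the 4 lists, where 0.936% to 1.73% of all starts did. Equal numbers of peaks per list cannot show a difference in how many peaks pass a threshold. With H3K4me1 peaks kept by FDR, up to 0.01, 4 and 2 of the 18 starts had one in the ZR751shLucif lists. In the ZR751shMLL3 lists 1 and 2 starts had one. The shares over all gene starts were then 20.6% and 24.9% in ZR751shLucif and 3.07% and 12.2% in ZR751shMLL3.

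Among the 20000 peaks of highest signal, SP1 peaks lay at 0 and 2 of the 18 starts in the ZR751shLucif lists and at 1 and 12 in the ZR751shMLL3 lists. The list with 12, of replicate 2, had a peak at 28.5% of all gene starts, against 3.22% to 4.08% in the other 3, so it stood apart over the whole genome and not at these genes alone. Starts with a peak in that list included those of GAS5, SNHG1, SNHG5, SNHG16 and SNHG17. The mean share was 30.6 percentage points higher in ZR751shMLL3 (exact permutation test, two-sided, p = 0.667), and by 0 points without that replicate. When peaks were instead kept by FDR, up to 0.01, the difference was 58.3 points (exact permutation test, p = 0.333). Both ZR751shLucif lists then hold 0 peaks, so 0 of 18 starts had one and the test could give only its smallest p. The ZR751shMLL3 lists then hold 204178 and 12065 peaks, so they are of unlike length. In these lists 9 and 12 starts had a peak, where 18.2% and 24.9% of all gene starts had one.

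Promoters of SNHG1, SNHG5 and GAS5, the SNHG and GAS5 rows with an unadjusted p under 0.05 by limma and no call after adjustment, are printed from 10 bases before the start to 50 after, from RefSeq on GRCh38.p14. They lie at chr11:62855836-62855895, chr6:85678684-85678743 and chr1:173868996-173869055, all on the minus strand. Capitals mark the run of C and T that includes the first transcribed base.
SNHG1: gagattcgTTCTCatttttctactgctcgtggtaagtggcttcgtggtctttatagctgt
SNHG5: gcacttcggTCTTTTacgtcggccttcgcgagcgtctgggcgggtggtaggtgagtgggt
GAS5: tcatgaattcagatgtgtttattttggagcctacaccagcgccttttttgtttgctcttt

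A run of 5 or more C or T bases at the start was present in 7 of 17 RefSeq starts of SNHG and GAS5 genes, or 41.2%, in 63.3% of 79 ribosomal protein starts and in 9.60% of all 35116 starts. GAS5 has no such run at the first RefSeq start listed, the only one printed for it. That start was not matched to the GENCODE start on hg19 used in the peak search. The SP1 motif GGGCGG, searched on both strands over 250 bases before to 50 after the start, was in 10 of the 17 windows, or 58.8%, and in 44.95% of all windows. The motif was present for SNHG1 and SNHG5 and absent from the window at that GAS5 start. These matches are descriptions of the sequence.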

How the data were processed

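RNA was isolated on RNeasy columns and sequenced as paired 75-base reads after a stranded total RNA library kit, in 2 libraries per cell line. The authors aligned reads to hg19 with TopHat2 2.0.13 and made the deposited FPKM per RefSeq gene with Cufflinks 2.2.1 and Cuffnorm 2.2.1, per the labels. The deposited ChIP-seq lists hold the authors' signal and the −log10 of their FDR for each peak, after BWA 0.7.5a-r405 alignment. Strand settings are not given in the sources used here. The depth behind single values is unknown, and p-values measure the spread between the 2 libraries of each line, which the methods call biological replicates.

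Members were found by symbol in RefSeq, where 606 of 23500 rows matched none. The test was limma 3.58.1 (R 4.3.3) over log2(FPKM + 0.5), for rows whose mean passed 1, at a Benjamini-Hochberg adjusted p of 0.05. Libraries were not paired, since no source says that a replicate number marks a shared culture or day. Deviations of same-numbered libraries had a correlation of 0.0374 across genes, which with 2 libraries per line cannot exclude pairing. Peaks were compared in Python 3.11.15 with pandas 2.3.3, and sequences read with samtools 1.23.1. In simulated tables of 11134 genes limma called 0 genes where none changed, and 64 and 199 of 200 genes changed by 2 and 4 on the log2 scale, with 6 and 7 false calls. The surrogate variable step called 421 where none changed. The simulated tables held independent genes, with no rows at 0 in a library and no outlying library. Of the 64 snoRNA and scaRNA rows tested, 45 were at 0 in at least 1 library, so these rates do not carry over to them.

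The members and lists were chosen with earlier results of these data known. Genes named were all SNHG rows and GAS5, snoRNAs past the adjusted p or at 0 in 1 line only, the 12 highest and the 8 largest changes each way among snoRNAs above 0 in all libraries, their hosts, KMT2C, and the 3 largest changes each way in the snoRNP list. Others were chosen after their values were seen.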

Additional observations from a re-analysis of the deposited data

How the results depend on the processing

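Other pseudocounts, filters, scalings, peak settings and fits without each library were tried. With the replicate block, 33 genes and 2 snoRNA rows (SNORA3A, SNORD104) were called in place of 1 and 1, and no other result changed its call. With no filter 0 genes and 0 snoRNA rows were called. With the stand-in for the surrogate variable removed, 1682 of the 11134 rows tested were called. The calls took in 14 of 64 snoRNA and scaRNA rows, 1 of 12 SNHG and GAS5 rows (SNHG5), 27 of 131 hosts and 4 of 40 snoRNP genes. That step also made 421 calls in simulated tables of independent genes without change. Leaving out 1 library gave 4 to 1333 called genes, 1 to 42 snoRNA rows, 0 to 2 SNHG rows, 0 to 33 hosts and 0 to 10 snoRNP genes, each highest without ZR751shLucif replicate 2. The snoRNA median ran from -0.86 to 4.43, snoRNA minus host from -0.70 to 5.11, the rows at 0 from -42 to 23 and the SP1 difference from 0 to 61.1 points. Log2 fold changes that changed sign without a library ran from -0.66 to 2.63 for SCARNA12, -0.047 to 3.49 for SCARNA22, -1.10 to 4.21 for SCARNA7, -0.057 to 0.53 for SNHG11, -0.69 to 0.18 for SNHG12, -1.18 to 0.036 for SNHG17, -0.56 to 0.027 for SNHG8, -0.14 to 0.41 for SNHG9, -0.77 to 5.66 for SNORA10, -0.69 to 2.92 for SNORA22, -1.64 to 2.46 for SNORA57, -1.08 to 1.29 for SNORA61, -1.90 to 1.69 for SNORA62, -1.20 to 4.63 for SNORA63, -0.63 to 3.60 for SNORA70, -1.12 to 0.71 for SNORA8, -0.42 to 1.65 for SNORD15A, -0.33 to 2.07 for SNORD17 and -1.40 to 1.31 for SNORD89. SNORD89 was at 0.031 with medians made equal and at 0.026 after quantile normalisation. The H3K4me1 difference was -8.33 points at an FDR of 0.01 and 8.33 within 5000 bp, and the ERα difference was -2.78 with 50000 peaks and -5.56 within 5000 bp. The cause of these changes was not tested. The depth behind single FPKM values is unknown.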
